A study of Mus musculus with 8 samples.

Results

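The arterial marker genes are 9 genes whose transcripts mark the arterial side of the vascular tree in mouse brain: Gkn3, Mgp, Bmx, Sema3g, Vegfc, Fbln5, Cytl1, Stmn2 and Egfl8. They were taken by symbol from the 31053 genes of the count files, and all 9 were present. Their RNA was measured in single cells of the brain cortical plate of 8-week-old mice, which had been perfused through the heart before the tissue was dissociated. There were 4 groups: mice labelled Lama4-/-, with no promoter or Cre named, wild-type (WT) mice as their control, mice in which Tek-Cre deleted Lama5 (Tek-Cre:Lama5-/-), and a separate WT control for these. Tek-Cre is a recombinase driven by the Tek promoter, which is active in endothelial cells and also in blood cells. Lama4 and Lama5 encode the alpha chains of the laminins of the vascular basement membrane. The brains of 3 mice were pooled in each group and 2 samples were deposited per group. The files of the Lama4-/- samples were identical, so they were counted as 1 library, which left 7 distinct libraries.

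Brain endothelial cells change step by step along the vessel, from arteries through arterioles and capillaries to venules and veins, and each zone has its own genes. Arterial identity is set up by Notch signalling and SOX transcription factors, and arterial endothelium lies against smooth muscle and, in larger vessels, an elastic layer. Several of the 9 genes encode secreted proteins. Gkn3 is a gastrokine family member that was named for the stomach and is a well-used marker of mouse brain arteries. Mgp, matrix Gla protein, is a matrix protein that blocks calcification of vessel walls. Fbln5, fibulin-5, takes part in the assembly of elastic fibres, and Cytl1 is a small cytokine-like protein. Vegfc is a growth factor best known for lymphatic vessels, and Sema3g is a class 3 semaphorin, a secreted guidance cue. Egfl8 carries epidermal growth factor-like domains. Bmx is a cytoplasmic tyrosine kinase of the Tec family, and Stmn2 is a stathmin, a regulator of microtubules best known in neurons.

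In GENCODE release M21 on GRCm38 all 9 are protein-coding genes. Gkn3 (chr6:87383256-87388935, minus strand) and Mgp (chr6:136872435-136875823, minus strand) lie on the same chromosome, far apart. Fbln5 lies at chr12:101746565-101819055, minus strand, and Cytl1 at chr5:37735519-37739820, plus strand. Bmx lies at chrX:164192842-164258193, minus strand, Sema3g at chr14:31217860-31230352, plus strand, and Vegfc at chr8:54077606-54187096, plus strand. Stmn2 lies at chr3:8509360-8561606, plus strand. Egfl8, at chr17:34613349-34615971, minus strand, is the only member that overlaps other annotated genes, Agpat1 on the opposite strand and Gm20460 on the same strand. How the counting treated reads in such overlaps is not given in the sources used here, so the Egfl8 level is uncertain to that extent.

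The 250 bases before the transcription start of 7 of the 9 members could be read from RefSeq on GRCm38.p6, in 8 windows, since Fbln5 has 2 starts. Shown here are the windows of Gkn3, the member with the largest change in the Lama5 KO, of Cytl1 and Fbln5, the members found nearest the large-vessel end of the arterial zone, and of Bmx, the other member whose window holds the motif searched. Capitals mark the core letters of the RBPJ motif, TGGGAA or TTCCCA on the other strand. RBPJ is the DNA-binding factor of the Notch pathway.
Gkn3 chr6:87388936-87389185 minus strand: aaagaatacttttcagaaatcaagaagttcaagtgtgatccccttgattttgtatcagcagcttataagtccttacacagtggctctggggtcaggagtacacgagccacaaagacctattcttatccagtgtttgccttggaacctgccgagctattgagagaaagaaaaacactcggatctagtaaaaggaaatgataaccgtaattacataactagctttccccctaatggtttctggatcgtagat
Cytl1 chr5:37735269-37735518 plus strand: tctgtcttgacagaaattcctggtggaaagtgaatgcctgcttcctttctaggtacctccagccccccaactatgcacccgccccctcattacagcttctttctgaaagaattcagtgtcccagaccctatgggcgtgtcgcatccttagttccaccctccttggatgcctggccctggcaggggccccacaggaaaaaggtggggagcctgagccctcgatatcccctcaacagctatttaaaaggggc
Fbln5 chr12:101819120-101819369 minus strand: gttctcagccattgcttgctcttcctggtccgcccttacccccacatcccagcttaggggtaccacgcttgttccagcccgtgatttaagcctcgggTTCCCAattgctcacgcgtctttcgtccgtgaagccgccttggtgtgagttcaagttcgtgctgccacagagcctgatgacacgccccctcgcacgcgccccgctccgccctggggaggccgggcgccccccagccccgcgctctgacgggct
Bmx chrX:164258194-164258443 minus strand: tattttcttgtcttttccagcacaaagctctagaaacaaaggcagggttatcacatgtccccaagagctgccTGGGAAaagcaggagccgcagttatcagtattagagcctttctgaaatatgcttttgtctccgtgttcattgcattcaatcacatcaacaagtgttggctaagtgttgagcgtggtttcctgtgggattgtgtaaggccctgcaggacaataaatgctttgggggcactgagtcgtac
The core letters were present in 2 of the 8 windows, 1 of the Fbln5 windows and that of Bmx, and in 21.6% of the 32851 RefSeq promoter windows of the same length. The Fbln5 match began 153 bases before the start on the other strand, and the Bmx match 178 bases before it on the gene's strand. The core letters of the SOX motif (AACAAT, or ATTGTT) were in none of the 8 windows and in 9.42% of all windows, and those of the E-box bound by HEY factors (CACGTG) were in none of the 8 and in 6.02% of all. The letters found do not show that a factor binds there, and their lack in these windows says nothing about the factors.

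The 7 libraries held 35479306 to 48314458 UMIs (molecules counted once each through their unique molecular identifier) in 56961 cell barcodes. After filters 47239 cells were kept, of which 26306 fell in endothelial-like clusters that met all 10 endothelial markers (Cldn5, Pecam1, Flt1 and 7 others). There were 2329 and 2215 such cells in the WT libraries of the Lama4 experiment, 2432 in the Lama4 KO, 4655 and 4727 in the Lama5 KO, and 4968 and 4980 in its WT. Their median UMI count was lower in each KO than in its WT, 4787 against 5915 and 5691 in the Lama4 experiment, and 2806 and 2585 against 3291.5 and 3136.5 in the Lama5 experiment. Lama4 RNA in endothelial-like cells was 45.8 CPM (UMIs of the gene scaled to a common total) in the WT mean and 0.0583 CPM, 1 UMI, in the Lama4 KO. Lama5 fell by 0.80 on the log2 scale in the Lama5 KO (edgeR quasi-likelihood test, adjusted p = 1.58e-12). Part of the Lama5 transcript can remain after a Cre deletion, so this level checks the label only in direction. Lama4 rose there by 0.71 (edgeR adjusted p = 2.72e-12). Any pair of libraries shared 5 to 24 cell barcodes. The libraries of a group come from 1 pool of mice, so every p-value compares pools and the spread may be technical.

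Among the cell classes, 4 members were found almost only in endothelial-like cells and 5 were shared with another class. Gkn3 was at 360.3 CPM over all endothelial-like cells, and Sema3g, Egfl8 and Cytl1 were at 128, 102 and 20.6 CPM there. In every other named class these 4 were at 8.01 CPM or lower. Mgp was more abundant in other cells of the vessel wall than in endothelium, with 903 CPM in endothelial-like, 1497 in smooth muscle-like, 2514 in pericyte-like and 12505 CPM in fibroblast-like cells. Stmn2 was at 134 CPM in endothelial-like cells and at 734 CPM in the 523 neuron-like cells. The neuron marker list summed to 5.61 to 15.7 CPM in endothelial-like cells, below the Stmn2 level in every library. The part of neuron RNA in the Stmn2 level was not tested. Fbln5 was at 51.4 CPM in endothelial-like and 59.6 CPM in the 180 fibroblast-like cells. Vegfc was at 83.2 CPM in endothelial-like and 21.5 CPM in fibroblast-like cells. Bmx was at 55.1 CPM in endothelial-like cells and at 109 CPM in 93 cells named as other myeloid, a level that rests on 47 UMIs.

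A level summed over cells holds both how many cells carry a transcript and how many molecules each of them carries. To separate these at equal depth, each cell was thinned at random to 2000 UMIs, which left out 138, 135 and 198 cells in the Lama4 experiment (WT, WT, KO) and 708, 798, 1098 and 1398 in the Lama5 experiment (WT, WT, KO, KO). The members fell into 3 kinds. Bmx, Sema3g, Vegfc, Stmn2 and Egfl8 were carried by 6.38% to 16.9% of endothelial-like cells and at only 1.19 to 1.90 UMIs per positive cell, near the single UMI that makes a cell positive. Gkn3 and Mgp were carried by a like share of cells but at more molecules per positive cell. Gkn3 was found in 13.1% and 12.98% of cells in the WT of the Lama4 experiment, 15.7% in the Lama4 KO, 13.2% and 15.1% in the Lama5 KO, and 11.7% and 11.4% in its WT. Both KO groups lay above their own WT without overlap. The level per Gkn3-positive cell was 3.55 and 3.69 UMIs, 4.85, 3.81 and 3.63, and 3.14 and 3.42 UMIs in the same order. Here too each KO lay above its WT, the Lama4 KO by more. For Mgp the level per positive cell was 8.99 and 8.72 UMIs, 10.9, 6.31 and 6.93, and 6.17 and 5.95 UMIs, again higher in each KO than in its WT. The share of Mgp-positive cells was 15.8% and 18.1% in the Lama5 KO libraries against 13.3% and 13.8% in their WT, also without overlap. Fbln5 and Cytl1 were the reverse of the first kind, rare but not at 1 molecule: Fbln5 was in 1.77% to 3.51% of cells at 1.84 to 3.36 UMIs each, and Cytl1 in 0.329% to 2.06% at 1.69 to 3.58. Microglia-like cells, which should lack these genes, were taken as the background. Thinned alike, from median depths of 2788 to 7235 UMIs against 2585 to 5915 in endothelial-like cells, at most 5.86% of them carried Mgp and at most 1.30% carried any other member. Cytl1 in the Lama5 experiment, with 0.329% to 0.511% of endothelial-like cells, was close to its highest microglial share in any of the 7 libraries, 0.350%. Which library held that share is not given, so it may be of the other experiment.

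**Figure D1:**
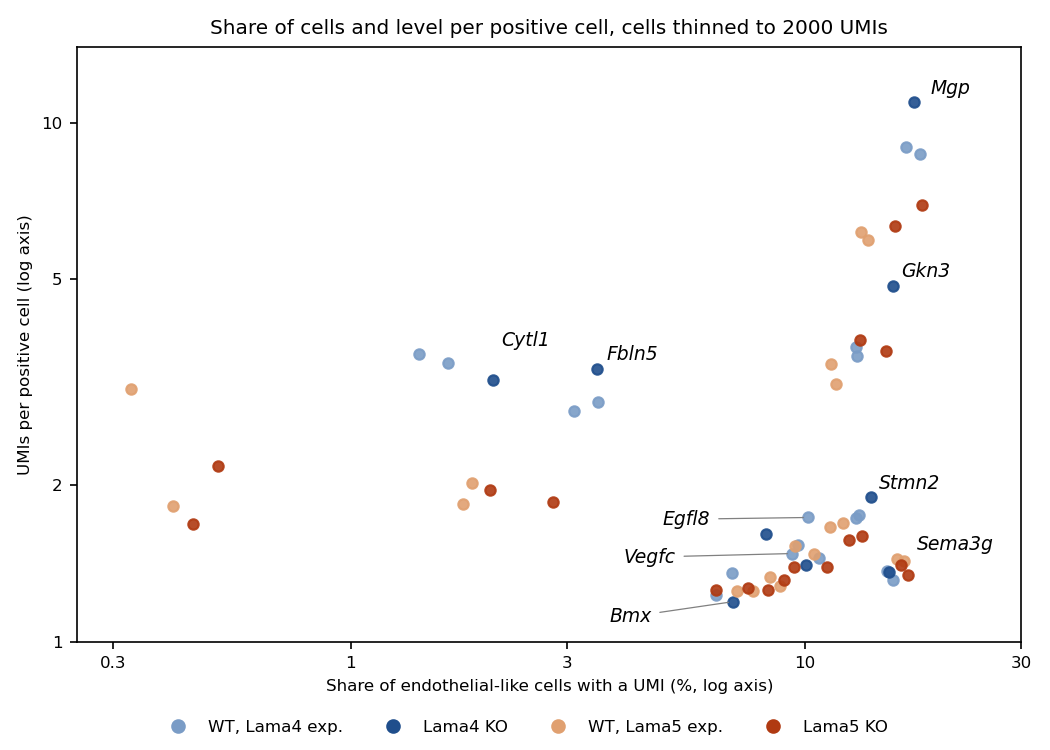
Share of endothelial-like cells with at least 1 UMI of each gene (x axis, %, log axis) against the UMIs per positive cell (y axis, log axis), after each cell was thinned to 2000 UMIs; each point is 1 library, coloured by group. Mgp and Gkn3 stand apart at the upper right, Fbln5 and Cytl1 to the left, and the other 5 genes lie at the lower right between 1.19 and 1.90 UMIs per positive cell.

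Cells were then ordered from the venous to the arterial side by a score of 14 arterial genes minus 10 venous genes, none of them a member. In each library the ordered cells were cut into 10 equal bins. All 9 members were highest in the most arterial bin in the median over libraries. The Gkn3 level had a median of 4.69 CPM in the most venous bin, 70.2 in the fifth and 1734 CPM in the most arterial bin. The members differed in how much of their level sat at the arterial end. Of the level summed over the 10 bins, the last bin held 62.2% ± 5.07 for Fbln5, 55.2% ± 3.32 for Mgp and 53.7% ± 8.02 for Cytl1 (SD over 7 libraries). Sema3g was the most spread, with 33.6% ± 0.919. Gkn3 held 49.8%, Egfl8 44.6%, and Vegfc, Bmx and Stmn2 39.8% to 39.9% there. Vegfc and Mgp also turned up at the venous end. The median Vegfc level was 28.4 CPM in the most venous bin and 11.95 CPM in the third, and Mgp was at 118 and 30.3 CPM in the same bins.

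**Figure D2:**
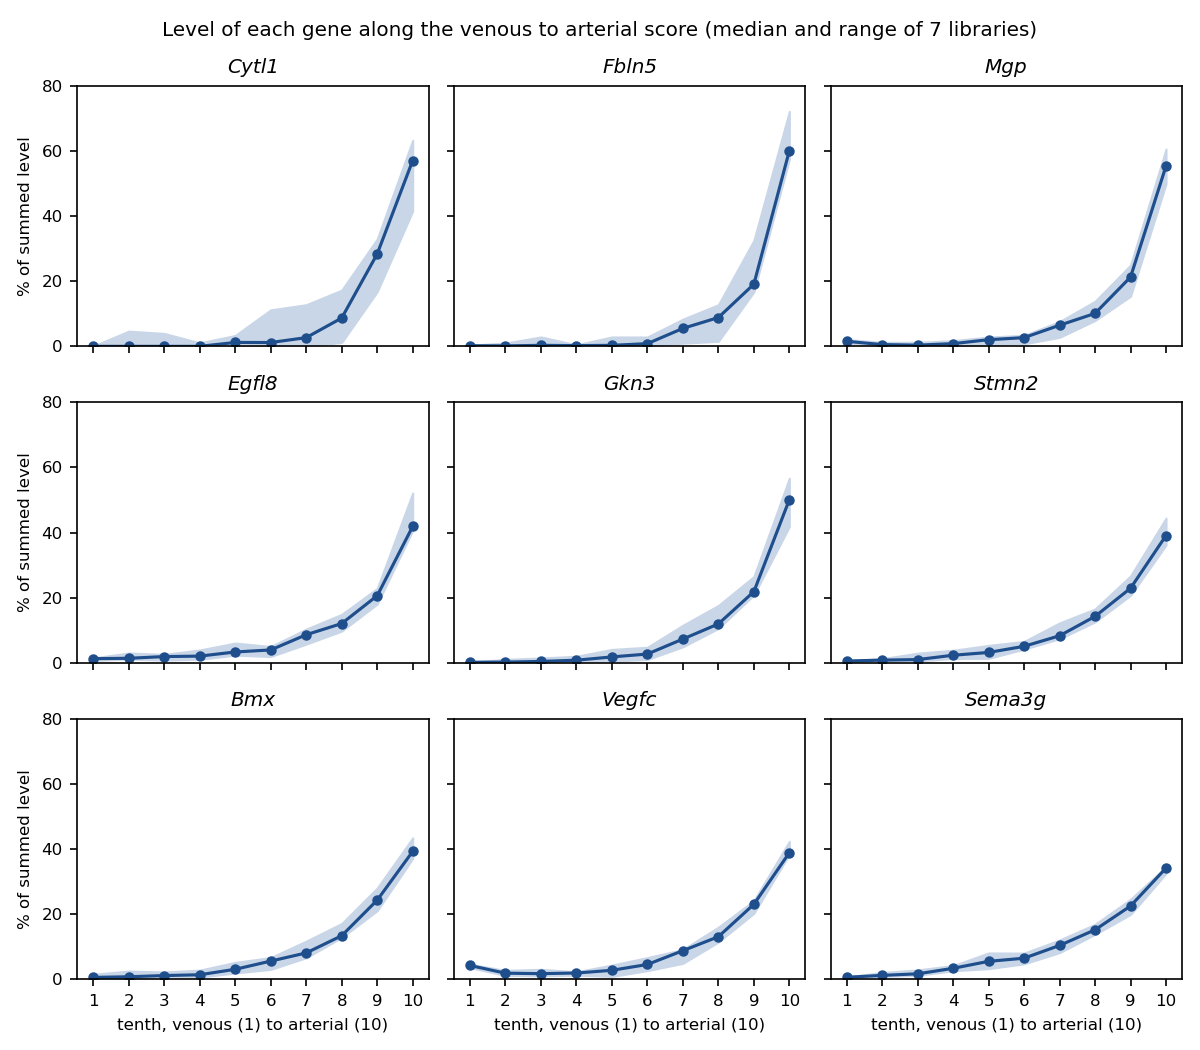
Level of each gene in 10 equal bins of endothelial-like cells from the venous (1) to the arterial (10) side (x axis), as a percent of its level summed over the bins (y axis, linear); points are medians and the band is the range over 7 libraries. All genes rise to the last bin, with a mean of 62.2% of the summed level there for Fbln5 and 33.6% for Sema3g.

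The arterial range was set as the cells at or above the 90th percentile of this score in the WT cells of the same experiment, again without the members. It is a range of a score and not a cell type, and 60 to 151 cells per library lay within 0.1 SD of its limit. Gkn3 was detected in 57.2% (51.1% to 65.7%) of the cells in the range (median, lowest and highest of 7 libraries) and in 8.28% outside it. Mgp was detected in 63.0% (55.8% to 67.2%) and 11.4%. Sema3g, the member with the highest median share outside, was detected in 49.1% (46.0% to 51.7%) inside and 12.3% outside. In each library of the Lama4 experiment the share outside was higher for Mgp than for Sema3g. For Fbln5 the shares were 17.9% (11.4% to 21.2%) and 0.808%, and for Cytl1 2.99% (1.65% to 10.6%) and 0.266%. A cell of the range carried 3.28 to 3.67 of the 9 members on average and a cell outside it 0.518 to 0.605, and in no library did the shares of the other 4 members inside the range meet those outside. Even so, 8.79% to 11.8% of the cells in the range had none of the 9 at 2000 UMIs.

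Within the arterial range the members differed in which cells held them. The cells of the range were ranked from the capillary to the large-vessel side by 8 large-vessel genes, such as Vwf, minus 11 capillary genes, such as Mfsd2a, and the place of a member is the mean rank of the cells that hold its UMIs, where 0 is the capillary end, 100 the large-vessel end and 50 an even spread. Cytl1 lay farthest out, at 91.2 ± 2.62 (mean ± SD, 7 libraries), followed by Fbln5 at 86.5 ± 0.906 and Mgp at 78.5 ± 3.34. Egfl8 at 65.6 ± 2.65, Gkn3 at 65.5 ± 1.34, Stmn2 at 63.2 ± 1.96 and Bmx at 60.7 ± 1.86 came next. Vegfc at 57.6 ± 1.49 and Sema3g at 57.2 ± 1.03 were the most even. In the Lama5 experiment Cytl1 was detected in 1.65% to 2.99% of the 348 to 424 cells in the range. Its place in those libraries therefore rests on few cells. Of the 36 pairs of members, 32 had the same order in all 7 libraries. The neighbours Egfl8 and Gkn3 kept their order in 4 of 7 libraries, Vegfc and Sema3g in 4, Stmn2 and Bmx in 6, and the pair of Egfl8 and Stmn2 in 6. The mean difference of place was within 1 SD over the libraries for 3 of these pairs, and just above it for Stmn2 and Bmx (2.50, SD 2.16). The first 3 genes came in the same order under each of the 4 other settings tried, while Egfl8 exchanged places with Gkn3, and Vegfc with Sema3g or Bmx, in some of them. The place of Mgp was higher in the 3 libraries of the Lama4 experiment, 79.9 to 83.5, than in the 4 of the Lama5 experiment, 74.6 to 77.0.

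**Figure D3:**
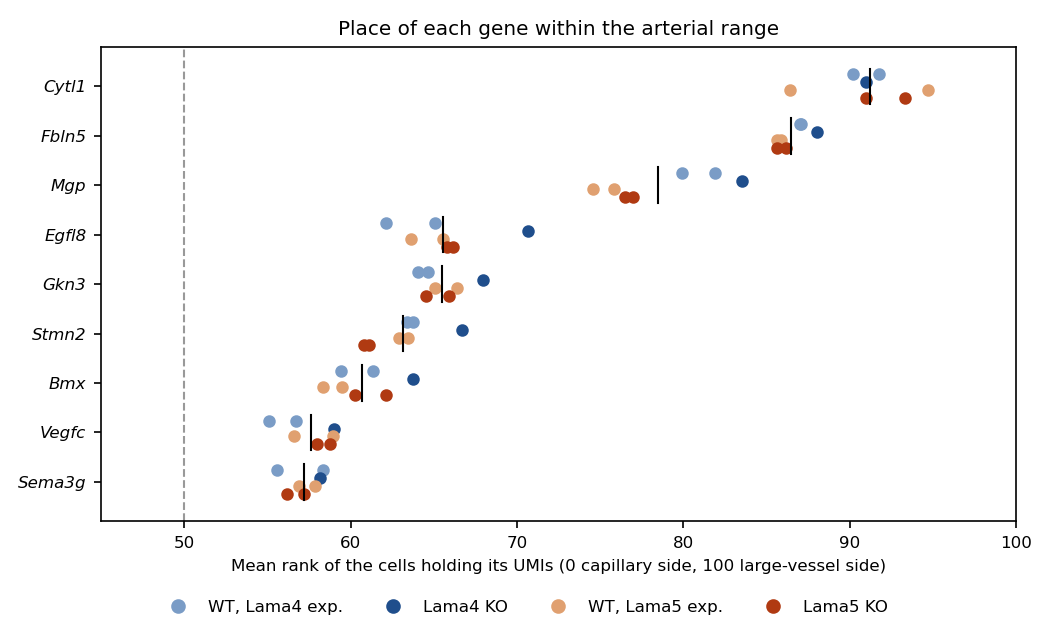
Place of each gene within the arterial range (x axis: mean rank, 0 capillary end to 100 large-vessel end, of the cells holding its UMIs); each point is 1 library, the black line is the mean of 7 and the dashed line marks an even spread. Cytl1, Fbln5 and Mgp lie apart from the other 6 genes on the large-vessel side.

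The levels in 3 equal parts of the range show the same order in CPM. Fbln5 had medians of 3.45, 55.2 and 581 CPM in the capillary-side, middle and large-vessel-side cells, and Cytl1 of 0, 3.17 and 102. Mgp rose from 642 over 2090.5 to 8094 CPM. Sema3g, by contrast, had 328, 422 and 493 CPM, and Vegfc 219, 294 and 314. Gkn3 had 575, 1661 and 2330.3 CPM. Of the 8 smooth muscle markers, Acta2 (13.8, 15.4 and 10.6 CPM) and Myh11 (3.45, 5.29 and 4.67 CPM) were highest in the middle part. The whole list summed to 162 to 274 CPM in the range. Its level by part, and that of the pericyte and fibroblast lists, is not given, so RNA of these cells along the range was not tested. Fbln5 and Cytl1 were also found together in single cells. In the thinned cells of the range 92 cells carried both, where 19.5 would be met if the genes were spread independently within each library, a median ratio of 4.32 (4.19 to 7.42). The other 35 pairs had median ratios of 0.951 to 2.00, with 1.33 for Gkn3 and Mgp. The ratio cannot exceed the inverse of the share of cells with the commoner gene. A pair of rare genes can therefore reach higher values than a pair with a common one, and the ratios do not rank the pairs. Cytl1 was met with Mgp in 104 cells and with Gkn3 in 94, so Fbln5 was not its most frequent partner. These ratios rest on cells of the same libraries and are given as a description.

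**Figure D4:**
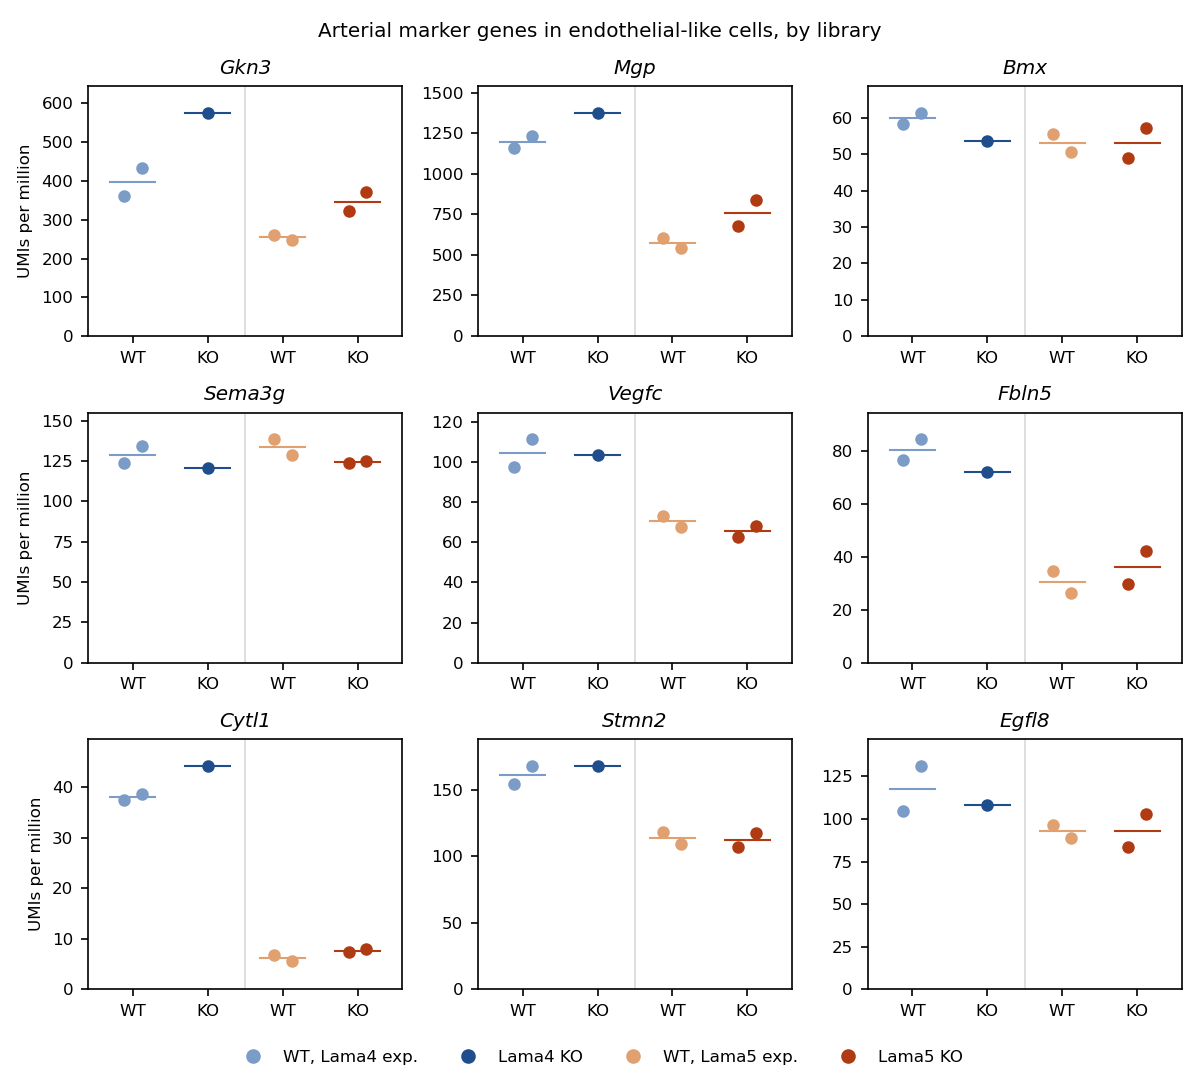
Level of each of the 9 genes summed over endothelial-like cells (y axis, CPM, from 0, scaled within each experiment); each point is 1 library and each line a group mean, with the Lama4 experiment left and the Lama5 experiment right of the grey line. Gkn3 and Mgp are higher in both KO groups than in their WT, and Cytl1, Fbln5 and Mgp differ most between the WT groups.

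In the Lama5 KO, 2 of the 9 members rose in endothelial-like cells and none fell, where 19.2% of the 13149 genes tested were called in either direction and 10.6% were called higher. The call is an adjusted p under 0.05 over all genes in the edgeR quasi-likelihood test, and all 9 members passed the filter on low counts. The members' median log2 fold change was 0.018, against -0.0019 for all genes. Gkn3 was at 322 and 370.4 CPM in the KO libraries against 260.2 and 248 CPM in their WT. All KO values lay above all WT values, and the log2 fold change was 0.46 ± 0.0356 (SE; edgeR adjusted p = 1.58e-12). Mgp was at 679 and 836 CPM in the KO libraries against 606 and 544 CPM in their WT, again with no overlap, and changed by 0.41 ± 0.0457 on the log2 scale (SE; edgeR adjusted p = 7.32e-09). The Mgp call was lost in DESeq2 (adjusted p = 0.138), where Gkn3 kept its call (adjusted p = 4.54e-04). Fbln5, at 29.5 and 42.3 CPM in the KO libraries against 34.4 and 26.1 CPM in their WT, overlapped, with a log2 fold change of 0.25 (edgeR adjusted p = 0.0693). Cytl1 was at 7.30 and 7.98 CPM in the KO libraries against 6.71 and 5.63 CPM in their WT, which did not overlap, and the edgeR adjusted p was 0.0879 for a log2 fold change of 0.32. The kinase gene Bmx, the stathmin gene Stmn2 and Egfl8 had log2 fold changes of 0.012, -0.014 and 0.018, and the secreted factors Sema3g and Vegfc of -0.09 and -0.09. Sema3g was at 124 and 125 CPM in the KO libraries against 138 and 129 CPM in their WT, and Vegfc at 62.7 and 68.3 CPM in the KO libraries against 73.2 and 67.7 CPM in their WT. Only Sema3g of these 5 had both KO libraries below both WT libraries. Bmx was at 49.0 and 57.2 CPM in the KO libraries against 55.5 and 50.6 CPM in their WT. Stmn2 was at 107 and 117 CPM in the KO libraries against 118 and 109.5 CPM in their WT. Egfl8 was at 83.4 and 103 CPM in the KO libraries against 96.6 and 88.7 CPM in their WT, and the groups overlapped for it as for Bmx, Stmn2 and Vegfc. None of the 5 passed the test, with edgeR adjusted p of 0.0711 for Sema3g and 0.176 to 0.919 for the other 4. In all, 3 members lay above the WT libraries in both KO libraries, 1 lay below (Sema3g) and 5 overlapped, where 28.2% of all genes lay above and 56.5% did not overlap.

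A fit that leaves out 1 library has 1 library in an arm, which is assumed to vary like the other arm. Its calls therefore rest on the spread of 2 libraries, and only fold changes are given here. Which members were called changed with the library left out. Vegfc had log2 fold changes of -0.15 and -0.16 without the second WT and the second KO library. Gkn3 and Mgp were higher in the KO in all 4 fits, with log2 fold changes of 0.35 to 0.56 and 0.25 to 0.56. Both were lowest without the second KO library.

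Within the arterial range of the Lama5 KO, 3 of the 9 members rose and none fell, where 4.17% of the 9870 genes tested were called and 2.85% were called higher. Gkn3 was at 1665 and 1756 CPM in the KO libraries against 1213 and 1047 CPM in their WT, without overlap (log2 fold change 0.61, SE 0.0461, edgeR adjusted p = 2.01e-15). Mgp was at 3652 and 4524 CPM in the KO libraries against 2691 and 2755 CPM in their WT, also without overlap (log2 fold change 0.60, SE 0.0474, edgeR adjusted p = 1.09e-14). Fbln5 was at 184 and 269.5 CPM in the KO libraries against 168 and 148 CPM in their WT, the second KO library well above the others (log2 fold change 0.53, SE 0.0930, edgeR adjusted p = 6.01e-05). The Fbln5 call was lost without that library (edgeR adjusted p = 0.329), in DESeq2 (adjusted p = 0.450), and with cells thinned to 1000 UMIs (edgeR adjusted p = 0.170), and in 2 further random draws of the thinning, chosen after seeing the data, with log2 fold changes of 0.25 and 0.23 (edgeR adjusted p = 0.226 and 0.273). In those draws Gkn3 stayed called with log2 fold changes of 0.57 and 0.57, and Mgp with 0.41 and 0.40. The other 6 members did not pass the test in the range: Cytl1 had 0.48 (edgeR adjusted p = 0.110) and the remaining 5 lay between -0.043 (Sema3g) and 0.12 (Egfl8). The median over the members was 0.12, and -0.0021 over all genes tested. Both KO libraries lay above both WT libraries for 4 members and the groups overlapped for 5, where 21.5% of all genes lay above and 43.2% did not overlap.

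**Figure D5:**
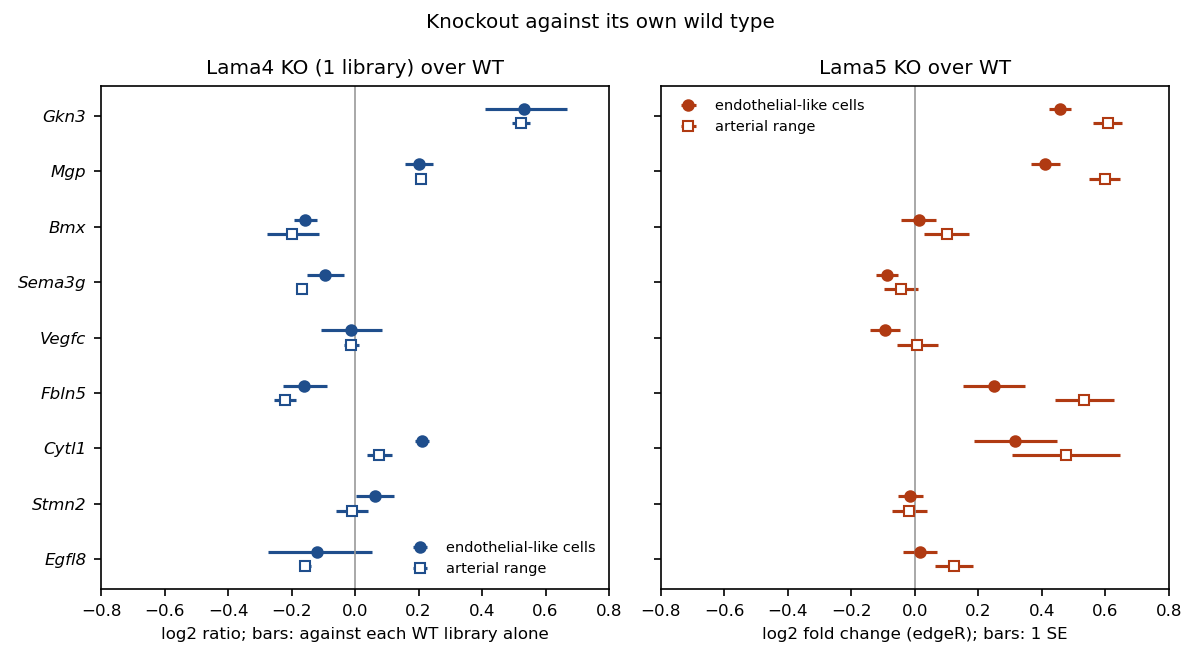
Log2 difference of each gene between KO and its own WT (x axis), in endothelial-like cells (filled circles) and in the arterial range (open squares). Left, the single Lama4 KO library over the mean of 2 WT libraries, with bars spanning the ratio to each WT library alone; right, the edgeR log2 fold change of the Lama5 KO with bars of 1 SE. Gkn3 lies furthest right in endothelial-like cells of both panels.

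At equal depth the Gkn3 difference of the Lama5 KO split into a higher share of positive cells and a higher level in each. On the log2 scale the share differed by 0.29 and the UMIs per positive cell by 0.18. For Mgp these were 0.32 and 0.13, but 0.16 and 0.16 at 1000 UMIs and 0.092 and 0.026 without thinning, so the size of the Mgp share depends on the depth chosen. Without thinning the share of Gkn3-positive cells was 13.8% and 14.1% in the KO libraries against 13.99% and 13.3% in their WT. These overlap, and the KO cells hold fewer UMIs. Thinning left out 14.3% and 16.02% of the WT cells and 23.6% and 29.6% of the KO cells, so the cells compared are the deeper ones, and the part this plays in the share was not tested. Bmx, Sema3g, Vegfc, Stmn2 and Egfl8 had so few UMIs per positive cell that no difference in level per cell can be read.

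The share of endothelial-like cells in the arterial range was 9.78% and 12.1% in the Lama5 KO against 9.88% and 10.1% in its WT, and the groups overlapped (difference 0.919 percentage points, two-sided exact permutation test, p = 1.0, where the smallest p that 2 against 2 libraries allows is 0.333). The sign and the overlap depended on the setting. The difference was -0.0076 points with cells thinned to 1000 UMIs, -0.227 without the second KO library, and -0.548 without thinning, where both KO libraries lay below both WT libraries. Both lay above with cells thinned to 3000 UMIs (2.03 points), in a second draw of the thinning (0.510) and with a cluster of mixed markers included (1.34). In the Lama4 experiment the KO library had 12.7%, above its WT libraries with 9.63% and 10.4%, and it lay above both under each setting tried.

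The Lama4 KO had 1 library, so its values are given without a test, with exact 95% intervals that cover counting error only. In endothelial-like cells 4 of the 9 members lay above both WT libraries, 3 below and 2 between, where 38.7% of 13041 genes lay above and 76.6% outside. Gkn3 was at 576 CPM in the KO library against 362 and 433 CPM in its WT. The KO lay above both WT libraries, by 0.53 on the log2 scale over their mean (ratio 1.45, 95% interval 1.416 to 1.49), where the WT libraries differed from each other by 0.26. Mgp was at 1376 CPM in the KO library against 1159 and 1233 CPM in its WT, a log2 difference of 0.20 (ratio 1.15, 95% interval 1.13 to 1.17). Cytl1 was at 44.1 CPM in the KO library against 37.5 and 38.7 CPM in its WT, a log2 difference of 0.21. These 3 and Stmn2, whose difference was 0.06, made up the members above both WT libraries. Fbln5 was at 71.9 CPM in the KO library against 76.4 and 84.3 CPM in its WT, below both, a log2 difference of -0.16 (ratio 0.896, 95% interval 0.838 to 0.958). Bmx, at -0.16, and Sema3g, at -0.09, also lay below, with 53.6 CPM of Bmx against 58.3 and 61.4, and 121 CPM of Sema3g against 124 and 134. Egfl8 (-0.12) and Vegfc (-0.01) lay between.

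In the arterial range the Lama4 KO differed in the same way for most members. Gkn3 was at 2489.6 CPM in the KO library against 1766 and 1697 CPM in its WT, a log2 difference of 0.52 (ratio 1.44, 95% interval 1.39 to 1.48), and 0.44 and 0.42 in the same 2 further draws of the thinning. Mgp was at 6260.0 CPM in the KO library against 5477 and 5359.7 CPM in its WT, a log2 difference of 0.21. In all, 3 members lay above, 4 below and 2 between the WT libraries, where 34.8% of genes lay above and 69.9% outside. At equal depth Gkn3 was detected in 65.7% of the cells in the range in the KO against 57.8% and 56.7% in its WT, at 5.90 UMIs per positive cell against 4.89 and 4.14. The KO lay above both WT libraries in each measure. Mgp was detected in fewer cells of the range in the KO, 55.8% against 62.1% and 65.4%, but at more UMIs per positive cell, 18.7 against 14.2 and 14.02. Fbln5 averaged 0.682 UMIs per thinned cell of the range in the KO, above the 0.507 and 0.636 in its WT, while its summed counts, in which deep cells weigh more, lay below both WT libraries, so its direction depends on the measure.

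Over all endothelial-like cells the thinned Lama4 KO differed from its WT for Gkn3 by 0.27 on the log2 scale in the share of positive cells and by 0.42 in the UMIs per positive cell. The Mgp share, 17.4% in the KO, lay between those of its WT (16.8% and 17.9%) at this depth, and below both at 3000 UMIs and without thinning (25.7% against a WT mean of 29.8%). Its level per positive cell was higher by 0.31. Fbln5 had a log2 difference of 0.32 per thinned cell, against -0.16 for the summed counts.

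RNA of other cells moved with some of these groups. The 8 choroid plexus markers summed to 1021 CPM in endothelial-like cells of the Lama4 KO against 101 and 158 in its WT, and to 82.5 and 90.5 CPM in the Lama5 KO against 2.52 and 2.99 in its WT. The red cell list summed to 2707 CPM in the arterial range of the Lama4 KO against 84.4 and 1099.6 CPM in its WT. Choroid plexus-like cells carried Fbln5 at 22.0 CPM and no other member above 14.3 CPM, and the part of these lists in the results was not tested. The red cell list was lower in the arterial range of the Lama5 KO, 34.4 to 37.4 CPM against 216 to 218 in its WT. The 8 fibroblast markers summed to 5.61 CPM in endothelial-like cells of the Lama4 KO against 3.32 and 4.22 in its WT, and to 13.5 against 9.40 and 10.8 CPM in the range, with up to 4 of the 8 at 0 in a library of that experiment. Fibroblast-like cells held the highest Mgp level of all classes. In the range of the Lama5 experiment the fibroblast list summed to 3.44 and 0.893 CPM in the KO and 3.28 and 3.57 in the WT. Over endothelial-like cells the microglia list summed to 133 to 136 CPM in the Lama5 KO against 104 to 106 in its WT. The astrocyte list summed there to 149 to 154 CPM in the Lama5 KO against 195 to 196 in its WT, and to 163 in the Lama4 KO against 137 to 145. The oligodendrocyte list summed to 313 to 320 CPM in the Lama5 KO against 340 to 382 in its WT, and to 98.5 in the Lama4 KO against 75.7 to 88.3. The part of the red cell, fibroblast, microglia, astrocyte and oligodendrocyte lists was not tested either. The 8 smooth muscle markers summed to 230.1 and 274 CPM in the arterial range of the WT of the Lama4 experiment, 192 in the Lama4 KO, 162 and 182 in the Lama5 KO, and 191 and 196 in its WT. They were thus lower in each KO than in its WT. The pericyte list summed in the range to 32.7 to 36.2 CPM in the WT of the Lama4 experiment and 25.9 in the Lama4 KO. It overlapped in the range of the Lama5 experiment, with 32.1 to 87.5 CPM in the KO and 49.9 to 96.8 in the WT. Over endothelial-like cells it also overlapped, with 37.6 to 50.9 CPM in the Lama5 KO and 32.5 to 42.0 in its WT. Pericyte-like cells held more Mgp than smooth muscle-like cells. The part of both lists was not tested.

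Leaving out cells with smooth muscle or pericyte UMIs gave different answers by how these were counted. Cells with 2 or more such raw UMIs were 37.1% and 36.1% of endothelial-like cells in the WT of the Lama4 experiment, 25.04% in the Lama4 KO, 6.29% and 5.65% in the Lama5 KO and 8.25% and 7.55% in its WT, and their median depth was 6324 to 7928 UMIs. These cells held 45.4% to 87.5% of the Gkn3 UMIs of a library. Without them 6 of the 9 members were called higher in the Lama5 KO, where 10.1% of all genes tested were called higher. All 9 lay above both WT libraries in the Lama4 KO, where 37.8% of all genes did, and the Gkn3 difference became 1.21 and that of Fbln5 0.47. Counted at equal depth, as cells with any such UMI among 2000, the cells left out were 31.8% to 32.6% in the WT of the Lama4 experiment, 28.4% in its KO and 14.5% to 15.9% in the 4 libraries of the Lama5 experiment. Without these, an alternative chosen after seeing the data, 3 members were called higher in the Lama5 KO, where 10.4% of all genes tested were: Gkn3 (0.52), Mgp (0.49) and Fbln5 (0.25, edgeR adjusted p = 0.0318). In the Lama4 KO the differences were then 0.37 for Gkn3, 0.09 for Mgp, which lay between the WT libraries, 0.56 for Cytl1 and -0.34 for Fbln5. Then 3 of the 9 members lay above both WT libraries, where 38.5% of all genes did.

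The WT groups of the 2 experiments carry the same genotype label, and their difference shows how far pools differ without a KO. Of the 9 members 7 were called, 1 higher and 6 lower in the WT of the Lama5 experiment, where 55.6% of the 13281 genes tested were called and 29.0% were called higher. Cytl1 was at 37.5 and 38.7 CPM in the WT of the Lama4 experiment and at 6.71 and 5.63 in that of the Lama5 experiment. The log2 fold change of the fit over both WT groups was -2.46 (SE 0.0836, edgeR adjusted p = 1.46e-11). These CPM values were scaled within each experiment, so their ratio differs from it. Fbln5 fell by 1.24 (SE 0.0870, edgeR adjusted p = 4.37e-08) and Mgp by 0.89 (SE 0.0427, edgeR adjusted p = 7.11e-10). Gkn3, Vegfc and Stmn2 fell by 0.48, 0.40 and 0.33, and Sema3g rose by 0.22 (edgeR adjusted p of 1.29e-05, 5.14e-05, 2.92e-05 and 8.28e-04). Bmx (-0.0076) and Egfl8 (-0.18) did not pass the test. With no cells left out for smooth muscle or pericyte UMIs, these differences of Cytl1, Fbln5 and Mgp between the WT pools were larger than those of any member between a KO and its WT. The experiments also differ in depth per cell and in their share of cells with smooth muscle UMIs, and the experiment and the pool cannot be told apart. With the raw count of those UMIs 5 of the 9 differences changed sign, and with the count at equal depth none of the 7 calls did. This comparison and that of the Lama5 KO use the same WT libraries.

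Among 25 other arterial genes, such as the Notch ligands, gap junction genes and Edn1, 8 passed the test for the Lama5 KO over all endothelial-like cells, 5 higher and 3 lower. Their median log2 fold change was 0.012. The called genes with the largest fold changes were Edn1, the precursor of the vasoconstrictor endothelin-1 (0.30, edgeR adjusted p = 1.98e-12), the phosphatase gene Alpl (0.28, edgeR adjusted p = 1.57e-07) and the receptor gene Notch4 (-0.24, edgeR adjusted p = 3.37e-04). Gkn3 and Mgp rose by more than any of the 25 genes that was called. The share called over all genes was 19.2%. In the arterial range 7 of the 24 tested were called, 6 higher and 1 lower, where 4.17% of all genes were called and 2.85% were called higher. The 14 arterial genes of the score that set the range are all among these 25 genes. The cells were thus chosen by the values of those genes, so this count is a description and cannot be weighed against the share over all genes.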

How the data were processed

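Single-cell RNA was measured in 8 samples with the 10x Chromium 3′ v3 kit, per the labels' protocols, in which minced tissue was digested with papain, DNase and Liberase and freed of myelin. The deposited matrices hold raw UMI counts per gene and barcode, made with Cell Ranger 3.1.0 per the file headers; mm10 and Seurat 3.1 stand in the submitters' processing notes. Cell calling and gene annotation settings are not given in the sources used here. Cells with at least 500 genes and under 15% mitochondrial UMIs were kept, 3015 likely doublets (0.8% per 1000 cells, by simulated neighbours) were removed, and the rest were clustered on 2000 variable genes, 30 components and 15 neighbours (Leiden at resolution 1, igraph 0.11.9, Python 3.11.15), which gave 33 clusters named from marker lists. UMIs were summed per library over endothelial-like cells and over the arterial range, and tested with edgeR 4.0.16 (R 4.3.3, TMM factors, quasi-likelihood, Benjamini-Hochberg over all genes tested). DESeq2 1.42.0 was an alternative. Scores, shares and places used cells thinned to 2000 UMIs. Expression levels summed for the tests were unthinned. Intervals are exact at 95% and cover counting error only. Samples were grouped by their titles. Sample numbers were not taken to pair the libraries across groups, and the closing section gives the values.

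The members and gene lists were chosen with earlier results of these data known. Named beside the members are the targeted genes and the other arterial genes passing the test with the largest changes. The genes whose pattern was most like the summed level of the members are named too. The analysis steps were tested on simulated data.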

Additional observations from a re-analysis of the deposited data

Results flagged for a closer look

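In the summed counts of the arterial range, Fbln5, the elastic fibre gene, lay on opposite sides of the WT in the KO mice. The single Lama4 KO library lay below both of its WT libraries, by -0.22 on the log2 scale, and both Lama5 KO libraries lay above theirs, by 0.52 for the ratio of mean CPM. The difference between the KO effects was not tested. In cells thinned to equal depth it was on the same side in both, with 0.682 UMIs per cell in the Lama4 KO against 0.507 and 0.636 in its WT, and 0.284 and 0.361 in the Lama5 KO against 0.219 and 0.219. In 2 other random draws of the thinning the Lama4 KO value was -0.17 and -0.04, and the edgeR log2 fold change of the Lama5 KO was 0.25 and 0.23.

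A small cluster led by Rgs5, Gkn3 and Notch3 held both endothelial and smooth muscle markers. It was left unnamed and kept out of the endothelial-like cells. It made up 0.874% (exact 95% interval 0.679% to 1.11%) and 0.904% (0.708% to 1.14%) of the kept cells in the Lama5 KO libraries, 68 and 72 cells, against 0.226% and 0.227% in their WT, 18 cells each. The Lama4 KO held none of 5126 kept cells, and its WT libraries held 2 and 0. The median depth of the cluster's cells was 10834 and 9634.5 UMIs in the Lama5 KO libraries and 11788 and 11335 in their WT. Endothelial-like cells of the same libraries had medians of 2585 to 3291.5 UMIs. Whether the cluster holds doublets that were not removed was not tested. Gkn3 was at 1078 and 1251 CPM in the cluster's cells of the Lama5 KO and at 1094 and 1050.4 CPM in those of its WT. Counting the cluster as endothelial-like was chosen after seeing the data. Gkn3 (0.54), Mgp (0.50) and Fbln5 (0.29, edgeR adjusted p = 0.00839) were then called higher in the Lama5 KO. The share of all genes called in endothelial-like cells under this setting is not given.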

How the results depend on the processing

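In endothelial-like cells of the Lama5 comparison the 2 members called became 1 in DESeq2 and 6 without cells carrying raw smooth muscle or pericyte UMIs, and 4 in each fit that left out 1 library (lowest 4, highest 4). The 8 other arterial genes called became 5 in DESeq2. In the arterial range the 3 members called became 5 without cells carrying such UMIs. DESeq2 called 963 of all genes where edgeR called 2519, 144 where it called 412 in the range, and 4807 where it called 7378 between the WT groups. Calls over all genes in the range ran from 112 at the 95th percentile to 704 with the mixed cluster. The Lama5 difference in the share of cells in the range was -0.0076 points when thinned to 1000 UMIs, -0.548 without thinning, and -0.227 to 2.07 with 1 library left out. Without cells carrying raw smooth muscle or pericyte UMIs, Stmn2 in the Lama5 comparison was 0.14, and between the WT groups Gkn3 was 0.50, Bmx 0.58, Vegfc 0.17, Stmn2 0.18 and Egfl8 0.50, each of the opposite sign. Egfl8 in the Lama5 comparison ran from -0.14 to 0.17 with 1 library left out. The causes were not tested. Of the other single-gene fold changes under an alternative, 514 kept their direction and side of the threshold, 25 passed it newly and 6 lost it.

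The correlation of deviations of same-numbered libraries was -0.028 in the Lama5 comparison and -0.034 between the WT groups. These values gave no sign that the numbers pair the samples. They cannot exclude a pairing, since counting noise also weakens such a correlation. With the replicate block Fbln5 was called beside Gkn3 and Mgp in endothelial-like cells (edgeR adjusted p = 0.000662 for Fbln5). The share of all genes called with the block is not given, so its calls are not counted here.

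Depth limits Bmx, Sema3g, Vegfc and Egfl8 most, since a positive cell mostly holds 1 UMI. It also limits Cytl1 in the Lama5 experiment, whose share of cells is near its highest microglial share in any library.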

Other observations

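Across 70 points, 10 bins from the venous to the arterial side in each of 7 libraries, the genes whose level followed the summed level of the members most closely, apart from members and genes of the score, were Timp3 (Pearson r = 0.971), Ssfa2 (0.967), Col18a1 (0.967), Lrrc32 (0.965) and S100a11 (0.962), among 6255 genes with a mean of at least 20 CPM in the most arterial bin. The points share libraries and an ordering, so these values are a description. The summed level is mostly that of Mgp and Gkn3, with means of 4523 and 1716 CPM in the most arterial bin. The members Sema3g and Cytl1 themselves ranked 104 and 212 in likeness to it. Timp3 encodes an inhibitor of metalloproteinases that binds to the matrix, and Col18a1 a collagen of the basement membrane. Lrrc32 encodes GARP, a surface protein that holds latent TGF-beta.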
